A study of Bos taurus with 129 samples.

Results

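The 10 genes described here mark alpha-beta T cells and their naive state in bovine blood: CD3D, CD3E, CD3G, CD4, CD8A, CD8B, IL7R, CCR7, LEF1 and TCF7. They were taken by symbol from the 32395 genes of the count table, each symbol had 1 row, and all 10 were among the 18937 genes that passed the filter on low counts over all libraries. No library had a member at 0, and the lowest member count was 436, for CD3G. Levels are given as CPM, counts scaled to a common library total with TMM factors, and each gene is compared only with itself, because the table holds no gene lengths.

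Whole blood RNA was sequenced from 26 crossbred steers at arrival by long transport (day 0) and on days 13, 28, 45 and 60, with 12 steers that were never diagnosed with or treated for bovine respiratory disease in that time (healthy) and 14 that carried the label BRD. In INR cattle the trace minerals (Zn, Mn, Cu and Co) came as sulfates (4 healthy, 7 BRD). In AAC cattle Zn, Mn and Cu were complexed with amino acids and Co came as glucoheptonate (4 healthy, 4 BRD). COMBO cattle had this complexed form with an oral mineral drench before shipment and on day 0 (4 healthy, 3 BRD). A COMBO animal treated for morbidity was given a further drench, so in the BRD cattle of that group disease and drench cannot be told apart. All cattle were vaccinated on day 0, revaccinated on day 21 and dosed with doramectin on day 0, pens were rotated every 14 days, and every group was given minerals. The dates of diagnosis were not used here, so a BRD library is a sample from an animal with that label, at no known stage of illness. At enrollment the AAC healthy and BRD cattle shared pens 2 and 8, whereas the COMBO healthy cattle stood in pen 5 and the COMBO BRD cattle in pen 6, and the INR healthy cattle in pens 3 and 4 and the INR BRD cattle in pens 3, 4 and 7. AAC healthy animal 48 has no library for day 13, since it failed at sequencing and the authors took it out, so there were 59 healthy and 70 BRD libraries.

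The alpha-beta T cell recognises peptides on MHC molecules through a receptor that signals through the CD3 chains, here CD3D, CD3E and CD3G. CD4 and the CD8 chains, CD8A and CD8B, are the coreceptors that divide helper from cytotoxic T cells, though in cattle CD8A can also be carried by NK cells and gamma-delta T cells, and CD3 by gamma-delta T cells. Naive T cells leave the thymus with IL7R, the receptor chain for the survival cytokine interleukin 7, and CCR7, the chemokine receptor that brings them into lymph nodes, and they depend on the transcription factors TCF7 and LEF1.

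Total counts per library ranged from 31613545 to 61692136 with a median of 44268685, and TMM factors lay between 0.9059 and 1.092. No 2 libraries held identical values. Libraries of the same animal resembled each other, with a median correlation of deviations of 0.376 against -0.017 for libraries of different animals. The library of INR BRD animal 40 at day 60 had an RNA integrity number below 6. The markers of B cells (8 of 8), monocytes (7 of 7), neutrophils (6 of 7) and erythroid cells (6 of 6) were also found in these whole blood libraries. In bulk blood, fewer T cells and less RNA of a gene per T cell cannot be told apart.

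Over all libraries CD3E ran from 143.8 to 679.6 CPM with a median of 344.7, and CD3D from 75.35 to 308.1 with a median of 198.5. CD3G ran from 9.37 to 74.03 CPM with a median of 31.85. All 3 CD3 genes thus spanned several fold between libraries.

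Among the coreceptors, CD4 ran from 18.9 to 337 CPM with a median of 154.6. CD8A ran from 34.98 to 145.8 CPM (median 73.95) and CD8B from 16.44 to 100.1 CPM (median 43.32). The lowest CD4 value belonged to INR BRD animal 43 at day 45.

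Of the genes of the naive state, IL7R ran from 136.7 to 752.3 CPM with a median of 320.8. CCR7 ran from 70.82 to 297.2 CPM (median 152.4). LEF1 ran from 127.7 to 480.7 CPM (median 316.8) and TCF7 from 189.3 to 688.1 CPM (median 422.8). The ranges of the healthy and the BRD libraries overlapped for every member, with medians for IL7R of 286.2 CPM in healthy and 340.2 CPM in BRD libraries, and for CCR7 of 151.1 and 153.6 CPM.

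**Figure D1:**
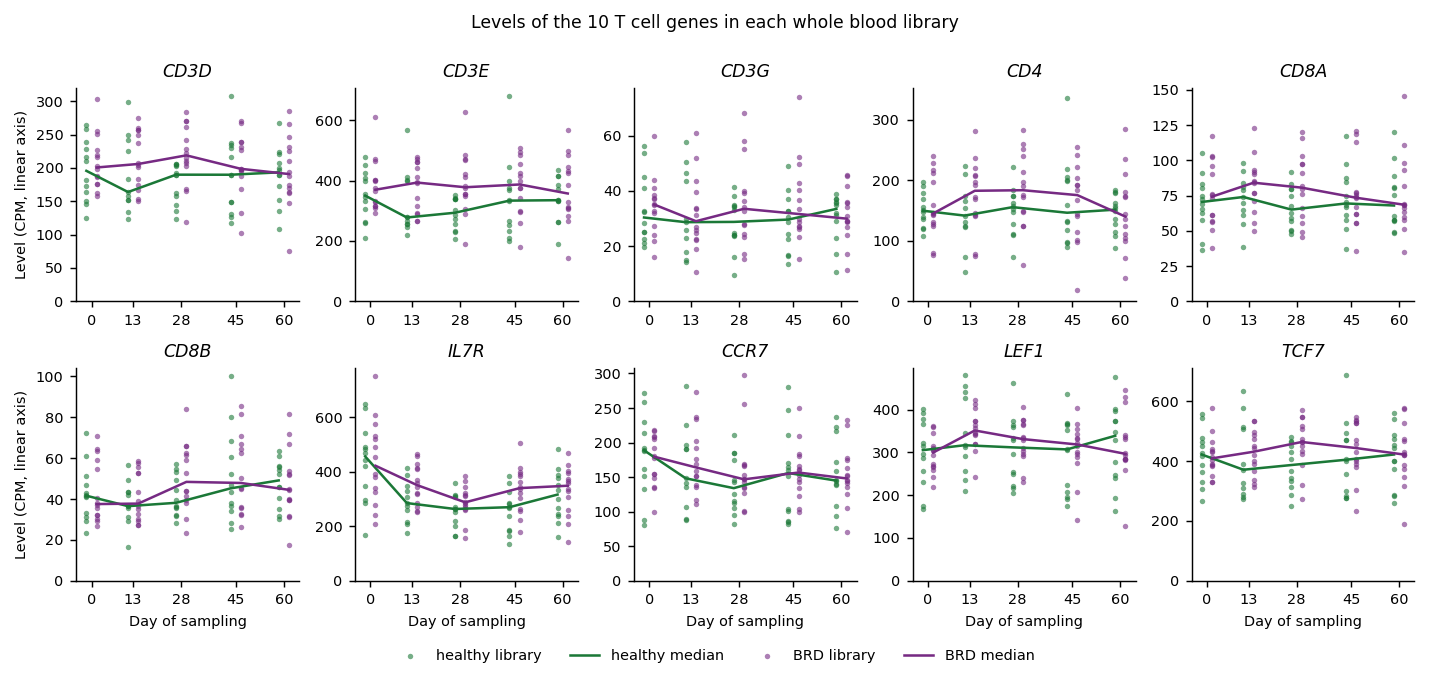
Level of each of the 10 T cell genes in CPM (linear axes from 0) against the day of sampling, with 1 point per library (59 healthy, 70 BRD) and lines through the medians of the healthy and the BRD libraries. The points of both labels overlap on every day, and IL7R shows the clearest step, from a median of 449.2 CPM at day 0 to 320.8 at day 13.

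Animal took the largest or nearly the largest share of the variation in each T cell gene except IL7R. Animal accounted for 73.4% of the variance of log2 CPM of CD8A, 63.7% of that of CD8B and 62.4% of that of TCF7, against a median of 42.1% over all genes tested. IL7R was the exception, with 37.9% for animal and 42.7% left after animal and day, while for all other members day accounted for 5.95% (CD8B) or less, against a median of 5.6% over all genes. These shares describe the libraries and were not tested.

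The distance between the highest and lowest animal, as means over days, was 3.6-fold for CD4 (animal 9 at 243.9 CPM, animal 43 at 67.81 CPM) and 3.57-fold for CD3G (animal 41 at 49.38, animal 10 at 13.83). It was 2.83-fold for CCR7, 2.78-fold for CD8B and 2.7-fold for CD8A, and smallest for TCF7 at 1.85-fold. INR healthy animal 10 was lowest for CD3D, CD3E, CD3G, CCR7, LEF1 and TCF7. AAC BRD animal 41 was highest for CD3D, CD3E, CD3G, CD8B and IL7R.

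Most members varied together from animal to animal. Over the means of the 26 animals, 43 of the 45 pairs of members were correlated at an adjusted permutation p under 0.10 by Pearson's r, and 43 by Spearman's rho (Benjamini-Hochberg over 45 pairs). Pairs of other genes were not counted in this way, so the count is not read as particular to the members. The CD3D and CD3E pair had r = 0.945 and rho = 0.843 (permutation p = 1e-05 for both, the smallest that 100000 permutations can give, adjusted p = 3.46e-05 and 4.09e-05), r = 0.917 without the 2 animals farthest from the median of CD3D, and r = 0.972 in healthy and 0.91 in BRD animals. TCF7 followed CD3D with r = 0.939 and rho = 0.919 (permutation p = 1e-05 for both, adjusted p = 3.46e-05 and 4.09e-05), 0.917 without the 2 farthest animals, 0.94 in healthy and 0.949 in BRD animals. CD3E, CD3D and CD3G are neighbours on 1 chromosome in the RefSeq gene annotation, and CD8A and CD8B are neighbours on another.

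The CD8 chains formed a pair of their own. CD8A and CD8B had r = 0.836 and rho = 0.815 (permutation p = 1e-05 for both, adjusted p = 3.46e-05 and 4.09e-05), r = 0.848 without the 2 farthest animals, 0.708 in healthy and 0.914 in BRD animals. The pairs that did not reach the threshold were CCR7 with CD8A (r = 0.172, permutation p = 0.398, adjusted p = 0.398, rho = 0.173, permutation p = 0.397, adjusted p = 0.397, r without the 2 farthest animals 0.092, healthy 0.268, BRD 0.026) and CCR7 with CD8B (r = 0.227, permutation p = 0.264, adjusted p = 0.27, rho = 0.191, permutation p = 0.346, adjusted p = 0.354, r without the 2 farthest 0.168, healthy 0.3, BRD 0.139). CD8A was also the member least like the others over all libraries, with r = 0.57 between it and the mean of the other members, against 0.948 for CD3D, 0.918 for CD3E and 0.914 for TCF7. These library correlations share animals and scaling and are a description.

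The 6 genes outside the set that followed the mean of the members most closely over all libraries were CD2 (r = 0.945), an adhesion receptor of T and NK cells, LOC112448411 (0.921), CDC25B (0.92), a cell cycle phosphatase, LCK (0.917), the kinase that starts signalling from the T cell receptor, LOC783945 (0.91), and UBASH3A (0.9), a regulator of that signalling.

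The question of the repeated sampling was how these genes moved from arrival to day 60. IL7R fell between days 0 and 13 and was still lower at day 60, LEF1 rose between days 0 and 13, CCR7 was lower at day 60 than at day 0, and the other 7 members had no change that passed the test. IL7R ranged from 167.3 to 752.3 CPM with a median of 449.2 at day 0, from 174.4 to 464.7 (median 320.8) at day 13, from 158.5 to 386 (median 274.8) at day 28, from 136.7 to 505.5 (median 294.4) at day 45, and from 143.3 to 485.5 (median 336.3) at day 60. Values of the days overlapped, but within animals IL7R was lower at day 13 than at day 0 in 19 of 25 and lower at day 60 than at day 0 in 21 of 26.

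In a fit with animal as a block (edgeR quasi-likelihood F-test, Benjamini-Hochberg over all genes, false discovery rate, FDR, under 0.10), IL7R fell by 0.45 ± 0.10 (SE) on the log2 scale from day 0 to day 13 (FDR = 0.000298) and by 0.44 ± 0.10 from day 0 to day 60 (FDR = 0.000251). LEF1 ranged from 168.1 to 400.9 CPM (median 300.2) at day 0 and from 210.3 to 480.7 (median 345.2) at day 13, was higher at day 13 in 17 of 25 animals, and rose by 0.20 ± 0.07 (FDR = 0.0207). CCR7 ranged from 80.04 to 271 CPM (median 184.4) at day 0 and from 70.82 to 237.2 (median 145.5) at day 60, was lower in 17 of 26 animals, and fell by 0.22 ± 0.09 (FDR = 0.0494). Without the block, LEF1 (0.23, FDR = 0.118) and CCR7 (-0.20, FDR = 0.313) missed the threshold. CCR7 also missed it without animal 6 (-0.19) or animal 49 (-0.18) and with limma voom (-0.21).

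Against the table as a whole these were few calls. Over the 5 steps 4 of 50 member tests were called, where 20.5% of all gene tests were. From day 0 to 13 these were 2 of 10 members, where 6104 of 18937 genes were called, and from day 0 to 60 2 of 10, where 6163 were. No member was called from day 13 to 28 (1.62% of all genes), from day 28 to 45 (28.2%) or from day 45 to 60 (7.66%), and at an unadjusted p under 0.05 the members reached 2, 0 and 0 in these 3 steps, where 2510, 6309 and 3599 of 18937 genes did. DESeq2 and limma voom likewise called none of them there. No change from day 0 to 60 passed the test for the CD3 chains, the coreceptors, LEF1 or TCF7. On the log2 scale the 95% intervals of that change ran from -0.23 to 0.09 for CD3E, from -0.34 to 0.10 for CD4, from -0.09 to 0.18 for CD8A and from -0.14 to 0.12 for TCF7.

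**Figure D2:**
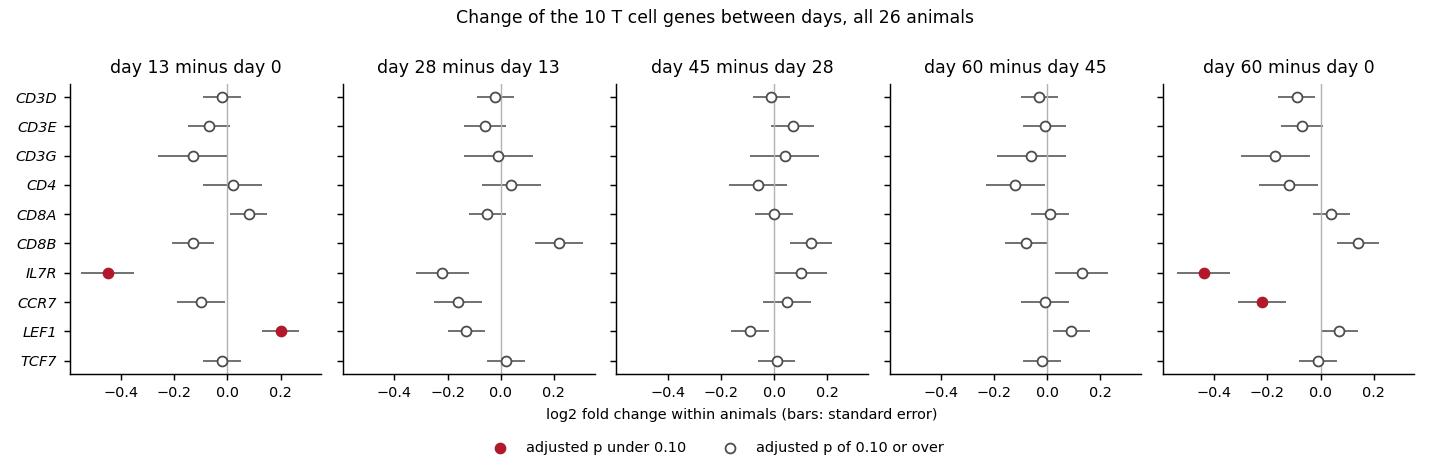
Change of the 10 T cell genes in each step between days, as the within-animal log2 fold change over all 26 animals with its standard error as a bar. Filled points have an adjusted p under 0.10: IL7R at -0.45 and LEF1 at 0.20 from day 0 to 13, and IL7R at -0.44 and CCR7 at -0.22 from day 0 to 60.

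Within the 12 healthy animals IL7R was the member that passed the test, at -0.62 ± 0.15 from day 0 to 13 (FDR = 0.00277, lower in 9 of 11) and -0.48 ± 0.14 from day 0 to 60 (FDR = 0.0191, lower in 10 of 12). Over the 5 steps 2 of 50 member tests were called, where 6.78% of all gene tests were, and the other 48 had an unadjusted p of 0.05 or more. In the 14 BRD animals IL7R differed by -0.27 ± 0.13 from day 0 to 13 (FDR = 0.174, lower in 10 of 14) and by -0.40 ± 0.13 from day 0 to 60 (FDR = 0.0293, lower in 11 of 14), and LEF1 rose by 0.25 ± 0.09 from day 0 to 13 (FDR = 0.0572, higher in 11 of 14). Here too 2 of 50 member tests were called, where 10.7% of all gene tests were, and 5 of 50 had an unadjusted p under 0.05.

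The difference between the changes in BRD and healthy animals was tested directly and called no member in any step, and 0 of 50 had an unadjusted p under 0.05 (all genes 0.0% called and 2.4% at that p; DESeq2 and voom also called no member). For IL7R from day 0 to 13 it was 0.36 ± 0.20 on the log2 scale with a 95% interval from -0.03 to 0.74. Without animal 43 the change of IL7R from day 0 to 60 in BRD cattle was -0.30 and missed the threshold, and without animal 18, 40 or 54 that of LEF1 from day 0 to 13 did (0.21, 0.21 and 0.23).

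Other T cell genes, in lists that hold no member, also changed between days 0 and 13, a step in which 6104 of 18937 genes were called, so the counts of the lists are given without reading them as particular to T cell genes. Of 12 genes of T cell receptor signalling, 5 rose (FYN by 0.28 ± 0.05, UBASH3A by 0.22 ± 0.06, and LCP2, THEMIS and LAT) and TRAT1 fell by 0.22 ± 0.08, with 6 not called. Of 8 accessory and costimulatory receptors, 1 rose, ICOS (0.21 ± 0.05). Of 8 genes of naive and quiescent cells 4 fell, among them S1PR1, the receptor for exit from lymph nodes, by 0.14 ± 0.05 and FOXO1 by 0.12 ± 0.05. Of 8 lineage factors 2 rose, BCL11B and RORA. From day 0 to 60 FOXO1 fell by 0.15 ± 0.05, 4 of the 12 signalling genes were higher (FYN, THEMIS, LCP2 and LAT), CD27 was lower, and of the lineage factors TBX21 and EOMES were higher and GATA3 lower.

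Markers of other blood cells changed in the same step. From day 0 to 13 the erythroid list rose in 6 of 6 genes and its summed level went from a range of 19.1 to 2565 CPM at day 0 to 128.8 to 27940 at day 13. Monocyte genes fell in 5 of 7 (CD14 by 1.17 ± 0.12, CD163 by 1.72 ± 0.17) and neutrophil genes in 4 of 6 (S100A8 by 0.86 ± 0.15), their summed levels ranging from 1285 to 9559 and from 1041 to 9036 CPM at day 0 and from 1133 to 4667 and from 731.3 to 2511 CPM at day 13. The part of these cells in the changes of IL7R, LEF1 and CCR7 was not tested. Platelet genes rose in 5 of 6 and B cell genes in 2 of 8.

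Ratios between 2 members in the same library do not depend on the scaling between libraries. Over 10 ratios and 5 steps between days, 15 of 50 tests passed an adjusted permutation p under 0.10 (2-sided, sign changes within animals, 100000 resamples, Benjamini-Hochberg over 50 tests). Ratios of other gene pairs were not counted in this way, so the count is not read as particular to the members. The ratios share genes and the steps share days, so the tests are not independent. The clearest changes were in the CD8 chains. The ratio of counts of CD8A to CD8B had a median of 1.78 at day 0 (1.15 to 2.1), 1.93 at day 13 (1.31 to 2.57), 1.6 at day 28 (1.12 to 2.38), 1.52 at day 45 (0.843 to 2.13) and 1.62 at day 60 (1.03 to 2.07). It rose 1.16-fold from day 0 to 13 in 21 of 25 animals (permutation p = 3e-05, adjusted p = 0.0015) and fell to 0.825-fold from day 13 to 28 in 20 of 25 (permutation p = 7e-05, adjusted p = 0.00175), with a further fall to 0.914-fold from day 28 to 45 in 19 of 26 (permutation p = 0.0166, adjusted p = 0.0692).

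CD8B rose against CD3E, from a median ratio of 0.114 at days 0 and 13 to 0.14 at day 28 and 0.146 at day 45. The step from day 13 to 28 was 1.19-fold, in 21 of 25 animals (permutation p = 0.00011, adjusted p = 0.00183), and from day 0 to 60 the ratio rose 1.16-fold in 18 of 26 (permutation p = 0.00215, adjusted p = 0.0215), after a fall from day 45 to 60 to 0.945-fold in 21 of 26 (permutation p = 0.00805, adjusted p = 0.0447). CD4 fell against CD8B, to 0.85-fold from day 28 to 45 in 20 of 26 (permutation p = 0.0255, adjusted p = 0.0857) and to 0.836-fold from day 0 to 60 in 21 of 26 (permutation p = 0.0059, adjusted p = 0.0374). CD8A rose against CD3E 1.14-fold from day 0 to 13 in 17 of 25 (permutation p = 0.00598, adjusted p = 0.0374), while no step of CD4 to CD8A, CD4 to CD3E or TCF7 to CD3E passed.

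The naive genes moved apart against CD3E. LEF1 to CD3E had a median of 0.807 at day 0 and 1.04 at day 13, a rise of 1.24-fold in 19 of 25 animals (permutation p = 0.00073, adjusted p = 0.00912), and fell to 0.901-fold from day 28 to 45 in 19 of 26 (permutation p = 0.0257, adjusted p = 0.0857). IL7R to CD3E had a median of 1.26 at day 0, 0.899 at day 13 and 0.773 at day 28. It fell to 0.801-fold from day 0 to 13 in 17 of 25 (permutation p = 0.00468, adjusted p = 0.0374), to 0.869-fold from day 13 to 28 in 15 of 25 (permutation p = 0.022, adjusted p = 0.0848) and to 0.794-fold from day 0 to 60 in 20 of 26 (permutation p = 0.0156, adjusted p = 0.0692). CCR7 to CD3E fell to 0.917-fold from day 13 to 28 in 18 of 25 (permutation p = 0.0117, adjusted p = 0.0587). With 1 animal left out between 10 and 17 of the 50 tests passed, and with days treated as separate samples 6 did. Of the 15 ratio calls 9 passed whichever animal was left out. The other 6 were CCR7 to CD3E from day 13 to 28 (lost without animal 6), IL7R to CD3E from day 0 to 60 (lost without animal 23 or 42) and from day 13 to 28 (lost without any 1 of 10 animals), and the changes from day 28 to 45 of CD8A to CD8B (any 1 of 6 animals), CD4 to CD8B (15) and LEF1 to CD3E (17).

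**Figure D3:**
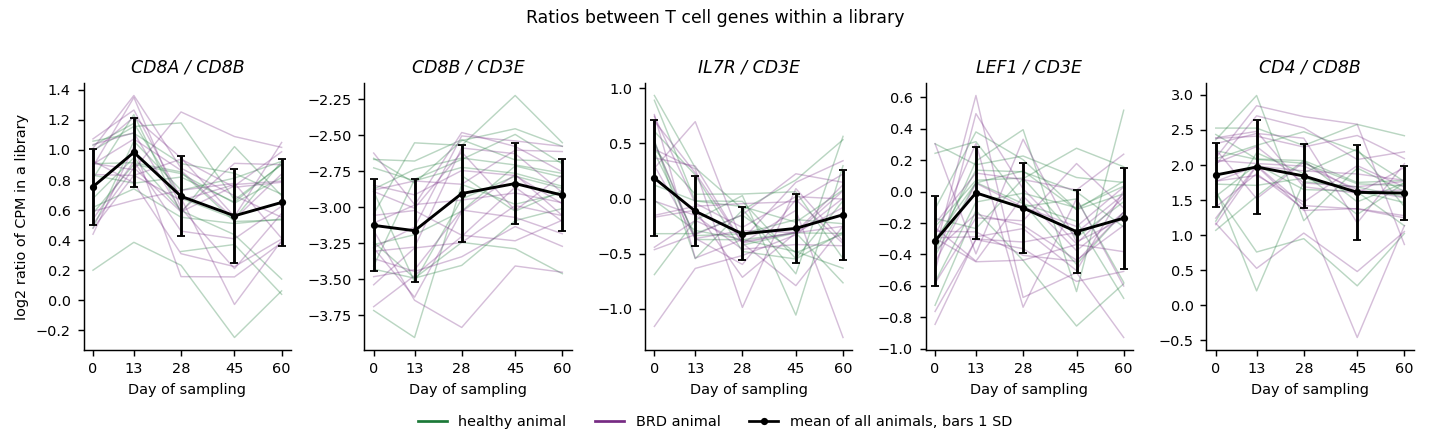
Log2 ratio of the CPM of 2 T cell genes within a library against the day of sampling for 5 ratios, with a thin line per animal (12 healthy, 14 BRD) and the mean of all animals with bars of 1 SD. CD8A to CD8B peaks at day 13, where it is 1.16-fold the level of day 0, and CD8B to CD3E then rises 1.19-fold to day 28, while IL7R to CD3E falls after day 0.

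The comparison of BRD with healthy cattle, averaged over the 3 mineral sources, found no member that differed on any day. Over 5 days 0 of 50 member tests had an FDR under 0.10, where 0.00528% of all genes did, and 4 of 50 had an unadjusted p under 0.05, where 5.48% of all genes did (edgeR quasi-likelihood F-test; smallest member FDR = 0.489; 0 called by DESeq2 and by limma voom). Of those 4 tests, 3 were on day 28 (CD3D, CD3E and TCF7), when 8.63% of all genes had such a p, and 1 on day 45 (IL7R, 0.41 ± 0.16). CD3E at day 28 ranged from 205.5 to 351.4 CPM (median 293.2) in 12 healthy and from 190.2 to 626.6 (median 377.7) in 14 BRD animals, which overlapped, and differed by 0.47 ± 0.15 (FDR = 0.489). All 10 members had a higher estimate in BRD cattle on that day, from 0.11 for LEF1 to 0.47 for CD3E, with a median of 0.287 against 0.012 over all genes, and none passed the test. Because the members vary together between animals, their directions are not separate observations. The ratios between members did not separate the labels either: 0 of 50 permutation tests passed, and only when animal 43 was left out did 1 pass, LEF1 to CD3E at day 28 (log2 difference -0.32, permutation p = 0.00196, adjusted p = 0.098).

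In AAC cattle both labels stood in the same pens in equal numbers, with 2 BRD and 2 healthy animals in pen 2 and the same numbers in pen 8. There genes of the CD3 and CD8 chains were called higher in BRD cattle, in calls that rested on few animals. INR cattle shared pens in part, with BRD and healthy animals together in pens 3 and 4 and 4 of the 7 BRD animals in pen 7. In a fit of the AAC libraries alone, 11 of 50 member tests were higher in BRD at an FDR under 0.10, where 1.88% of all gene tests were, and 26 of 50 were higher at an unadjusted p under 0.05, where 8.62% were. None was lower at either threshold, and 49 of 50 estimates were higher in BRD. Because the members vary together between animals, these are not 50 separate observations. In either direction 3895 of 89710 gene tests were called and 15567 had an unadjusted p under 0.05. The called members were CD3E, CD8A and CD8B at day 0, CD3E and CD8A at day 28, CD3D, CD3E, CD3G, CD8A and CD8B at day 45, and CD8A at day 60. Neither CD4 nor any of IL7R, CCR7, LEF1 and TCF7 was called on any day. At day 45 IL7R (0.94 ± 0.32, edgeR FDR = 0.119) and TCF7 (0.54 ± 0.18, FDR = 0.127) came close to the threshold. IL7R values of that day did not overlap (321.4 CPM or more in BRD, 286.23 or less in healthy animals). How many of all genes did not overlap was not counted. The calls thus do not set the CD3 and CD8 genes apart from IL7R and TCF7.

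CD8A at day 45 measured 118.49 CPM in BRD animal 9, 120.57 in animal 21, 76.491 in animal 31 and 113.26 in animal 41. The healthy animals measured 61.54 CPM (34), 70.621 (46), 36.731 (48) and 51.541 (49). Each BRD value lay above each healthy value, and the difference was 0.97 ± 0.26 on the log2 scale (edgeR quasi-likelihood F-test, FDR = 0.0489). At day 0 CD8A was 102.66, 90.172, 57.176 and 103.06 CPM in the same BRD animals and 68.686, 65.681, 36.224 and 40.97 CPM in the healthy animals, where animal 31 overlapped the healthy values. The difference was 0.75 ± 0.26 (FDR = 0.0834) at day 0, 0.80 ± 0.26 (FDR = 0.0874) at day 28 and 0.94 ± 0.26 (FDR = 0.0766) at day 60.

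CD3E at day 45 measured 494.82 CPM in animal 9, 485.02 in animal 21, 398.46 in animal 31 and 508.84 in animal 41, all with BRD. It measured 334.48 (34), 332.16 (46), 231.34 (48) and 199.97 CPM (49) in the healthy animals, which did not overlap the BRD animals (0.79 ± 0.19, edgeR FDR = 0.0321). At day 0 the BRD animals had 403.3, 465.16, 327.58 and 611.17 CPM and the healthy animals 355.14, 260.85, 208.82 and 306.89 CPM, with animal 31 below healthy animal 34 (0.69 ± 0.19, FDR = 0.0353). The difference at day 28 was 0.67 ± 0.19 (FDR = 0.051).

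CD8B at day 45 was 81.475, 70.71, 45.434 and 85.307 CPM in BRD animals 9, 21, 31 and 41 and 34.268, 52.182, 28.395 and 25.381 CPM in healthy animals 34, 46, 48 and 49, with animal 31 below animal 46 (1.03 ± 0.29, edgeR FDR = 0.0698). CD3G at day 45 was 52.12, 74.026, 27.222 and 49.569 CPM in BRD and 32.741, 16.737, 24.378 and 16.508 CPM in healthy animals, again with animal 31 inside the healthy range (1.18 ± 0.35, FDR = 0.0787). CD3D at day 45 was 266.64, 232.02, 227.39 and 269.75 CPM in BRD and 189.43 (34), 190.02 (46) and 117.73 CPM (49) in healthy animals, with animal 48 between these, without overlap (0.69 ± 0.20, FDR = 0.0726). At day 0 CD8B differed by 0.82 ± 0.29 (FDR = 0.096).

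The members' median difference in AAC cattle was 0.474, 0.314, 0.581, 0.741 and 0.428 for days 0 to 60 in order, against 0.025, 0.004, 0.02, 0.011 and 0.006 over all genes. At day 13, with 3 healthy libraries, no member was called (3 had an unadjusted p under 0.05: CD3E, CD8A and CD8B). The 5 days sample the same 8 animals, so calls on different days are not independent. The fit held no term for animal and took libraries of 1 animal as separate samples, so its FDR values can be too small. The calls rest on few animals: the fits without animal 9, 21, 41 or 49 made 1 member call each, the fit without animal 48 made 2, and those without animal 34, 46 or 31 made 9, 11 and 13, counts that need not be the same calls. None of the 11 passed without animal 21. Each of the 11 calls was lost in 3 to 6 of the 8 fits that left out 1 animal. At an FDR under 0.05 there were 3 calls, while DESeq2 made 16 and limma voom 14.

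The mean of each animal over its days gave the same order without a model across genes. CD8A averaged 122.05, 98.97, 71.78 and 109.7 CPM in BRD animals 9, 21, 31 and 41, and 65.2, 70.43, 45.14 and 47.25 CPM in healthy animals 34, 46, 48 and 49, without overlap. CD3E averaged 456.2, 436.1, 400.5 and 502.9 CPM against 354.7, 298, 282 and 249.1, and TCF7 522.6, 447.8, 475 and 526.6 CPM against 436.4, 430.2, 319.7 and 303.9, also without overlap. CD3G means did not overlap either (38.15 CPM or more in BRD against 36.15 or less in healthy animals). The tests used animal means of log2 CPM. For CD8A, CD3E and TCF7 the exact permutation p was 0.0286, 2-sided, the smallest that 4 against 4 allows, and the adjusted p over all 100 tests of animal means was 0.336. How many of all genes separate the labels in this way was not counted. Over those 100 tests, chosen after seeing the data, 9 had a permutation p under 0.05 and 0 passed the adjustment. In pen 8 BRD animals 9 and 41 had 122.05 and 109.7 CPM of CD8A and healthy animals 46 and 48 had 70.43 and 45.14, and in pen 2 BRD animals 21 and 31 had 98.97 and 71.78 and healthy animals 34 and 49 had 65.2 and 47.25, so BRD was higher in both pens.

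**Figure D4:**
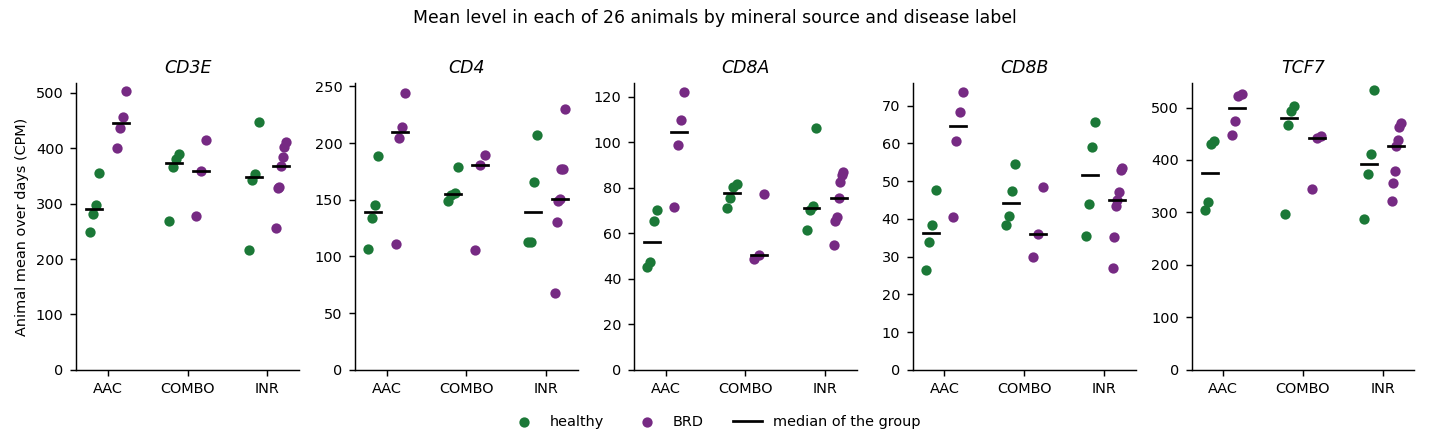
Mean level over days (CPM, linear axis from 0) of CD3E, CD4, CD8A, CD8B and TCF7 in each of the 26 animals, by mineral source and disease label, with a bar at the median of each group. In AAC cattle the BRD animals lie above the healthy animals for CD8A (71.78 CPM or more against 70.43 or less), CD3E and TCF7, and in COMBO and INR cattle the labels overlap.

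Related genes and other cell types differed in the same animals. Of all genes, 9.46% were called in either direction at day 0, 5.23% at day 28, 3.75% at day 45 and 2.79% at day 60. Of the 12 genes of T cell receptor signalling, 5 were higher in AAC BRD cattle at day 0 (CD247, the zeta chain, by 0.75 ± 0.17, LAT, FYN, ZAP70 and LCK), 3 at day 28, 6 at day 45 (CD247 by 0.85 ± 0.17) and 3 at day 60, and none was lower. Of the lineage factors GATA3 was higher on days 0, 28, 45 and 60 (0.66 ± 0.20 to 0.90 ± 0.20), TBX21 lower on days 0 and 28, and EOMES higher on days 0 and 45. None of the 8 accessory receptors was called on any day, and of the 8 naive and quiescence genes FOXP1 was lower at day 0.

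B cell genes were lower in the AAC BRD cattle, in 7 of 8 at day 0, 6 at day 28, 5 at day 45 and 4 at day 60 (CD79B by -1.42 ± 0.35 at day 0), and their summed level was 991 to 1850 CPM in the 20 BRD libraries (median 1530) and 1890 to 3650 CPM in the 19 healthy libraries (median 2490), without overlap. The NK and cytotoxic sum had medians of 297 and 199 CPM, and the monocyte sum 3940 and 2360 CPM in BRD and healthy libraries, and the gamma-delta sum ran from 120 to 396 and from 61.4 to 157 CPM, all with ranges that overlapped. NK and cytotoxic genes were higher in 3 of 7 at day 28 (PRF1, NKG7 and GZMA) and 1 at day 45, SOX13, a factor of gamma-delta T cells, was higher on days 0, 28 and 45, and the erythroid genes were higher in 4 of 6 at day 0. Monocyte genes were higher in 1 of 7 at day 0 and 3 of 7 at day 28, and neutrophil genes in 2 of 6 at day 0. GNLY, TRDC and CSF3R, markers of these lists, had no row in the table used here. The part of these cells in the difference of the T cell genes was not tested.

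In COMBO cattle alone 0 of 50 member tests were called (0.616% of all genes) and 2 had an unadjusted p under 0.05 (7.74% of all genes), CD3G at day 13 and CD8A at day 60, both lower in BRD. In INR cattle alone 0 of 50 were called (0.193%) and 2 had such a p (5.37%), IL7R at day 13, higher in BRD, and CD8B at day 45, lower. These 2 fits were added after seeing the data and were run with edgeR only. For days 0 to 60 in order, the members' median difference in COMBO cattle was -0.325, -0.289, 0.135, -0.037 and -0.26. In INR cattle it was -0.1, 0.345, 0.19, -0.246 and -0.033. The estimates were higher in BRD for 10 of 10 members in INR cattle at days 13 and 28 and for 8 of 10 in COMBO cattle at day 28, so neither group held 1 direction over the days. CD8A means over days were 77.41, 50.46 and 48.51 CPM in the COMBO BRD animals 16, 18 and 54 and 80.25, 75.39, 71.24 and 81.65 CPM in the COMBO healthy animals 3, 6, 42 and 57, where animal 16 lay inside the healthy range. In the 7 INR BRD animals the mean CD8A ran from 54.66 to 87.04 CPM and in the 4 INR healthy animals from 61.67 to 106.4.

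Whether the gap between labels differed between mineral sources was tested directly, in contrasts added after seeing the data. Of 150 member tests 3 had an FDR under 0.10, where 1.59% of all genes did, and 26 had an unadjusted p under 0.05, where 11.9% did. All 3 set AAC against COMBO. At day 0 this contrast called 3097 of 18937 genes, so 2 of 10 members was near the background there, and at day 60 it called 148 genes and 1 member. On the log2 scale the BRD-minus-healthy difference was larger in AAC by 1.20 ± 0.37 for CD8A at day 0 (edgeR quasi-likelihood F-test, FDR = 0.0272), by 1.19 ± 0.45 for CD8B at day 0 (FDR = 0.0731) and by 1.44 ± 0.37 for CD8A at day 60 (FDR = 0.0719). At day 60 CD8A was 145.81, 93.387, 68.638 and 110.94 CPM in AAC BRD and 49.377, 57.487, 57.964 and 57.009 CPM in AAC healthy animals, while in COMBO it ran from 51.6 to 66.09 CPM in 3 BRD and from 75.67 to 101.6 CPM in 4 healthy animals, so the order of the labels was opposite in the 2 groups, with no overlap in either. Against INR, CD8A and CD8B at day 45 came close (1.37 ± 0.33, FDR = 0.107, and 1.62 ± 0.41, FDR = 0.11). With DESeq2 8 of the 150 were called. Leaving out 1 animal gave 1 to 8 calls: 1 without animal 21, 41, 48 or 49 and 5 or more without animal 10, 16, 23, 27, 31 or 46. The call of CD8A at day 0 was lost without animal 18 (1.01), that of CD8B at day 0 without animal 3, 18, 21, 41, 48, 49 or 54, and that of CD8A at day 60 without animal 9, 21, 41, 42, 48, 49, 54 or 57. In the AAC against COMBO contrast at day 0 the B cell list was lower in 7 of 8 genes (CD79B by -2.54 ± 0.50), and 5 of 7 monocyte and 4 of 6 erythroid genes were higher. Their part was not tested, and in COMBO cattle the label and the pen cannot be told apart. The calls at day 0 fell at the start of the feeding period, when COMBO cattle had already been drenched before shipment.

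Between mineral sources within 1 disease label no member differed at the threshold. In healthy cattle 0 of 150 member tests were called, where 0.0383% of all genes were, and 10 had an unadjusted p under 0.05, where 7.46% did (edgeR, smallest member FDR = 0.286; DESeq2 and voom called 0). The smallest p belonged to CD8B at day 45, which ran from 25.38 to 52.18 CPM in 4 AAC and from 38.25 to 100.1 CPM in 4 INR animals, overlapping (log2 difference of AAC minus INR with a 95% interval from -1.57 to -0.43, FDR = 0.286). Taken as the change from each animal's own day 0, the CD8B difference was -0.25. Without INR animal 10 it was -1.20 with an FDR of 0.0923 (edgeR). The other 9 were CD8A on days 0, 45 and 60, CD8B and IL7R on day 0, and CD3D and CD3E on day 45, and in the 9 of the 10 that involve AAC the estimate was lower in AAC.

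In BRD cattle 0 of 150 were called, where 1.55% of all genes were, and 23 had an unadjusted p under 0.05, where 10.9% did (smallest member FDR = 0.104). The estimate was higher in AAC in each of the 21 of these that involve AAC, against COMBO or INR. For CD8A the estimates of AAC minus COMBO were 0.69 ± 0.27 at day 0 (FDR = 0.104), 0.69 ± 0.27 at day 13 (FDR = 0.144), 0.74 ± 0.27 at day 28 (FDR = 0.239), 0.93 ± 0.27 at day 45 (FDR = 0.354) and 0.81 ± 0.27 at day 60 (FDR = 0.242), none past the threshold. When each animal was set against its own day 0, the difference in change between AAC and COMBO was 0.09, 0.26 and 0.05 for CD8A at days 28, 45 and 60 (edgeR with the animal as a block, no member past the threshold). At day 45 CD8A values were 76.49 to 120.6 CPM in 4 AAC, 35.81 to 77.73 in 3 COMBO and 55.45 to 75.44 in 7 INR animals. AAC thus lay above INR and overlapped COMBO by 1 animal. The difference of AAC minus INR did not pass the test either (0.68 ± 0.22, edgeR FDR = 0.209). The count of calls was sensitive here: DESeq2 made 3, a fit of all libraries 2, and leaving out animal 16, 43, 40 or 31 made 4, 3, 2 and 1. Day 0 was the start of the feeding period, while COMBO cattle had already been drenched before shipment.

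INR BRD animal 43 had the lowest summed level of the 10 genes of all animals on days 28, 45 and 60, a pattern noticed in the data and described without a test. Its CD4 was 79.32 CPM at day 0, 142.4 at day 13, 60.45 at day 28, 18.9 at day 45 and 37.94 at day 60, while the lowest of the other 25 animals on the last 3 days had 73.96, 89.82 and 71.99 CPM. Its CD3E went from 292.5 CPM at day 0 and 478.2 at day 13 to 190.2, 178 and 143.8, the lowest of the day on each of the last 3 days. TCF7 went from 433.7 and 475.7 to 274.4, 234.4 and 189.3 CPM, and LEF1 from 361.2 and 363.4 to 239.5, 142.6 and 127.7 CPM. At day 60 it was the lowest animal for 9 of the 10 members and next to lowest for CD3G.

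CD8A in this animal was 56.49, 70.84, 55.52 and 55.45 CPM on days 0 to 45, inside the range of the others, and 34.98 CPM at day 60, below it. The summed level of the members was 2167, 2589, 1237, 1053 and 851.8 CPM on the 5 days, against medians of 2170, 2119, 2127, 2111 and 2096. Its B cell sum was 2003, 2431, 3341, 4279 and 4319 CPM, the highest of all animals on days 45 and 60. Its monocyte sum was the lowest of all animals from day 28 on. Its neutrophil sum was the highest at day 0 (9036 CPM) and the lowest on days 45 and 60 (594.2 and 410.2 CPM). Its gamma-delta and eosinophil sums were also the lowest on days 45 and 60. The erythroid sum was the lowest at day 45, and the NK and cytotoxic sum at day 60. Its platelet sum lay inside the range of the others on both days. Low sums were thus not particular to the T cell genes. The part of these cells was not tested. Without animal 43 the calls between days were 5 in place of 4 in all cattle and 1 in place of 2 in BRD cattle.

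**Figure D5:**
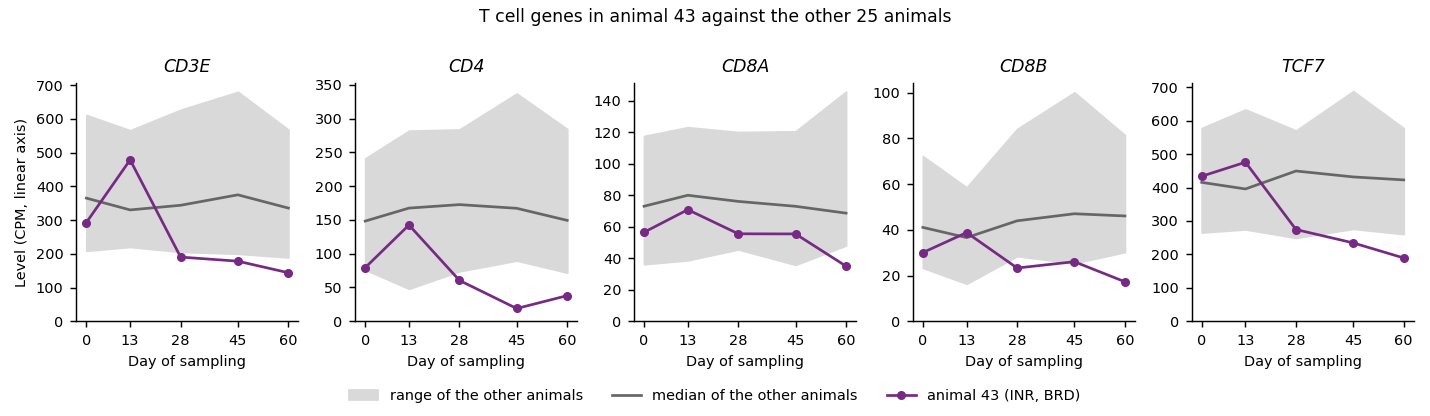
Level (CPM, linear axis from 0) of CD3E, CD4, CD8A, CD8B and TCF7 in INR BRD animal 43 against the day of sampling, with the range (grey area) and median (grey line) of the other 25 animals. From day 28 the animal lies below the range of the others for CD3E and CD4, at 143.8 and 37.94 CPM on day 60.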

How the data were processed

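Whole blood RNA of 26 steers was sequenced at day 0 and on days 13, 28, 45 and 60. The deposited table holds raw gene-level counts, which the authors made by trimming with Trimmomatic 0.39, mapping to ARS-UCD1.3 with HISAT2 2.1.1, assembly with StringTie 2.2.0 and conversion to counts with its prepDE script at a read length of 150 bases, so counts are rebuilt from coverage and shared reads of near copies are not marked. These versions, with FastQC 0.11.9 and edgeR 3.36.0, are those of the submitters' processing notes, and the published methods name other versions of HISAT2 and edgeR. Total counts per library of 31613545 to 61692136 set the counting precision, and intervals cover the spread between samples only as far as these animals show it.

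From the counts, genes were filtered with filterByExpr and scaled by TMM, and edgeR 4.0.16 (R 4.3.3) fitted quasi-likelihood models with F-tests and Benjamini-Hochberg adjustment over all genes of a contrast, with calls at an FDR under 0.10. Changes between days had animal as a block, since the labels give each animal's number and libraries of 1 animal deviated together (median correlation 0.376, lowest animal 0.292). BRD against healthy and the mineral sources were compared at each day. These fits held all days together, with 1 mean per group and day and no term for animal. Like the fits of 1 source alone and of the difference between labels across sources, they took repeated libraries of 1 animal as separate samples. Their p and FDR values can therefore be too small. The fit of AAC cattle alone was a listed alternative, whereas the fits of COMBO and INR cattle alone, the tests of the difference between labels across sources and the tests of animal means were added after seeing the data. Ratios of members used CPM with a pseudocount of 0.5 and permutation over animals (100000 resamples). Python 3.11.15, numpy 2.4.6, pandas 2.3.3 and matplotlib 3.10.9 were used for ratios and figures. Scripts were tested on simulated data. The simulations for labels and mineral sources held no animal effect, so they do not show how repeated libraries of 1 animal affect those fits.

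All 10 members are named. Of each list of other genes, up to 6 called genes with the smallest p per comparison, and the 6 genes most like the members, could be named. The members and lists were chosen with earlier results of these data known. Alternatives were another normalization (RLE), filters, trended dispersion, an FDR under 0.05, DESeq2 1.42.0, limma 3.58.1 voom, fits with other libraries and each animal left out, where refits with the block kept the dispersion of the full fit. A planned search for promoter motifs was not run, since no promoter sequences of this build were used here, and no sequences or coordinates are given. Some genes of the lists are not reported here.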

Additional observations from a re-analysis of the deposited data

Results flagged for a closer look

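Of 240 groups of 4 or 7 animals of 1 member, day, mineral source and disease label, 12 (5.0%) held an animal far from the rest by Dixon's criterion, and chance flags about 1 in 20. The 12 fell on 11 animals. The high values were CCR7 in AAC BRD animal 41 at day 0 (216.8 CPM, next 148.3), CD3G in AAC healthy animal 49 at day 28 (34.93, next 24.59), CD3G in COMBO healthy animal 3 at day 0 (56.37, next 32.76), CCR7 in INR BRD animal 40 at day 45 (249.8, next 161.3), CD4 in INR healthy animal 30 at day 28 (222.7, next 128.2) and CD8A in INR healthy animal 50 at day 28 (91.46, next 62.59). The low values were CD8A in AAC BRD animal 31 at day 45 (76.49 CPM, next 113.3), CD8A in AAC healthy animal 34 at day 60 (49.38, next 57.01), CCR7 in AAC healthy animal 49 at day 60 (93.85, next 139.5), CD8A in COMBO healthy animal 42 at day 28 (50.26, next 79.45), LEF1 in COMBO healthy animal 6 at day 60 (240.1, next 373.1) and LEF1 in INR BRD animal 43 at day 45 (142.6, next 276.0).

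In contrasts added after seeing the data, the BRD-minus-healthy gap was called different between AAC and COMBO cattle in 3 member tests. These were CD8A at day 0 (1.20 on the log2 scale), CD8B at day 0 (1.19) and CD8A at day 60 (1.44). Their edgeR FDR values were 0.0272, 0.0731 and 0.0719. They were 3 of 150 member tests, where 1.59% of all gene tests were called. The same contrast called 3097 of 18937 genes at day 0, so 2 of 10 members was near the background there, and 148 at day 60. Of 26 refits with 1 animal fewer, the 3 calls were lost in 1, 7 and 8, in the order given. In AAC cattle the BRD estimate was higher and in COMBO cattle lower for all 3 calls. In COMBO cattle the label cannot be told apart from the pen, nor at day 60 from the further drench. The 2 calls at day 0 fell at the start of the feeding period, when COMBO cattle had already been drenched before shipment.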

How the results depend on the processing

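The count of member calls between days was 4 with the animal as a replicate block and 2 without it (3 to 5 without 1 animal), 2 and 1 in healthy cattle (2 without any 1 animal), and 2 and 0 in BRD cattle, where it was 1 at an FDR under 0.05 and 1 to 3 without 1 animal (1 without animal 18, 40, 43 or 54). BRD against healthy gave 0 calls under every alternative run except AAC cattle alone, with 11, and these were 3 at an FDR under 0.05 and 1 to 13 without 1 animal. The difference between labels across sources gave 3 calls, 1 at an FDR under 0.05, 8 with DESeq2 and 1 to 8 without 1 animal. Mineral sources in BRD cattle gave 0 calls, but 1 with RLE, 3 with DESeq2, 1 with the stricter filter, 1 without animal 40 at day 60, 2 in a fit of all libraries and 0 to 4 without 1 animal. In healthy cattle the range was 0 to 1. Ratios between days gave 15 calls, 9 at an FDR under 0.05, 6 with days as separate samples and 10 to 17 without 1 animal, and ratios between labels 0 to 1. The causes of these shifts were not tested, other than the fewer samples or the stricter threshold of the alternative itself. No value changed its sign. Of 380 single values under alternatives other than leaving out an animal, 327 kept their side of the threshold, 39 lost the call and 14 gained it. Of 1140 values with 1 animal left out 977 kept their side, 34 gained the call and the others lost it. The groups held 3 to 7 animals of 1 source and label, the biological coefficient of variation was 28.37% to 40.21% over the fits, and no member had fewer than 436 counts in a library.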
